A study of Chlorocebus sabaeus with 10 samples.

Results

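The 39 genes described here mark the resident and infiltrating leukocytes of the liver: 26 myeloid genes, most of them known from Kupffer cells, other macrophages, monocytes and neutrophils, and 13 lymphocyte genes known from T cells, cytotoxic cells, B cells and plasma cells. They were taken from a fixed list of gene symbols, and each gene was represented by its transcript with the highest mean count. The symbols of 37 genes matched the table of 28078 transcripts, each with 1 transcript, and all 37 had a count in at least 1 animal. C1QA, the A chain of complement C1q, and AIF1, an actin-binding protein of macrophages, matched no symbol and were not analysed here. A filter on low counts kept 25 genes for testing, 18 myeloid and 7 lymphocyte, among 7948 transcripts.

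Kupffer cells are the macrophages that line the liver sinusoids, where they take up bacteria, worn red cells and debris from portal blood with scavenger and complement receptors, and they are a main source of complement C1q. Monocytes and neutrophils enter the liver with the blood or during injury, and the liver also houses T cells, natural killer cells and a smaller number of B and plasma cells. Leukocyte infiltration and Kupffer cell activation are known features of fatty liver disease, for which diets rich in fructose are a common model.

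The animals were female vervet monkeys, Old World primates that were age-matched according to the study. The mean age it gives was higher for the HFr group than for the chow group, with a wide spread in each. The study did not find that difference significant, and the part of age in the marker levels was not tested. All animals had been kept on chow before the study began. For 6 weeks, 5 animals were then fed a high fructose (HFr) diet and 5 stayed on chow, and 1 stranded polyadenylated RNA library was made from the frozen liver tissue of each. Total estimated counts per animal were 3052497 to 4992505 on the HFr diet and 2977282 to 4663431 on chow, of which mitochondrial transcripts took 41.8% to 67.8% and 34.7% to 73.6%. This left 864571 nuclear counts in chow 4 and 932119 in chow 5, the 2 livers with the highest mitochondrial percent, and up to 2657103 in chow 3. Levels below are normalized counts, that is estimated counts divided by a library size scaled with the trimmed mean of M values, in CPM. At 3 counts, the limit that a count of 0 allows, a level is 0.55 to 1.52 CPM depending on the animal. Transcript length is not part of this unit, so levels are compared between animals and not between genes. In bulk tissue, fewer cells of a type and less RNA per cell cannot be told apart.

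The question asked of the leukocyte markers was whether their levels differed between the diets, and how far they varied between animals on the same diet. Among the 25 tested markers, 1 fell below 0.05 before adjustment in edgeR's quasi-likelihood test, ITGAX, with higher levels on the HFr diet. Of all tested transcripts, 4.29% met this threshold, 2.06% in the higher and 2.23% in the lower direction, so the share of the markers was close to the background. No marker, and no transcript, had an adjusted p under 0.05 in this fit, and every tested marker had an adjusted p of 0.9996 or above. DESeq2 gave 2 transcripts an adjusted p under 0.05 and limma gave none, and no marker was among them. The log2 fold change of HFr over chow was above 0 for 16 of the 25 markers, against 49.8% of all tested transcripts. Its median was 0.05 over the markers, 0.08 over the 18 myeloid and -0.0014 over the 7 lymphocyte genes, beside -0.00075 over all tested transcripts. The median standard error (SE) of a marker's log2 fold change was 0.37, against 0.25 for all tested transcripts.

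**Figure D1:**
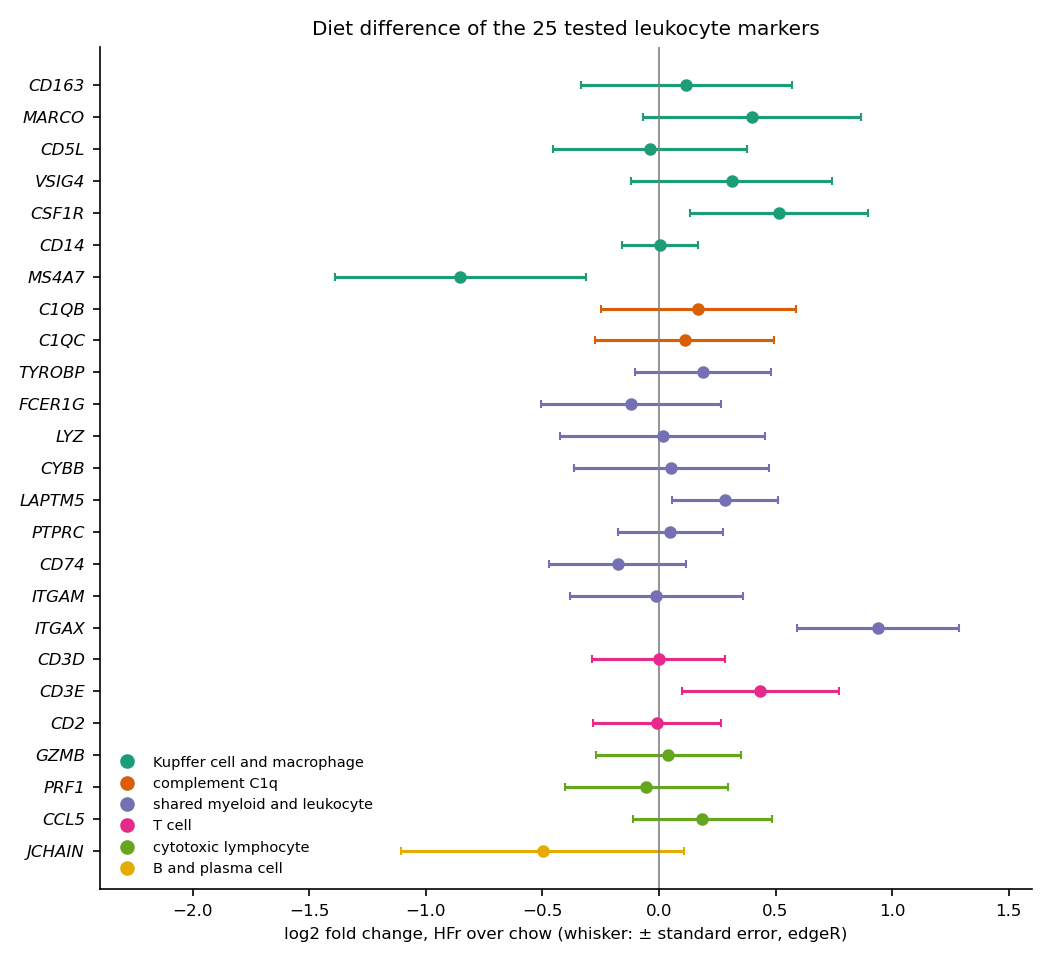
Log2 fold change of HFr over chow for the 25 tested leukocyte markers, colored by role; points are edgeR estimates and whiskers are ± 1 standard error, with 5 animals on each diet. Most whiskers cross 0, and ITGAX lies farthest to the right at 0.94, with CSF1R, LAPTM5 and CD3E also more than 1 standard error above 0 and MS4A7 more than 1 below.

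The Kupffer cell and macrophage markers were measured in 9 genes, of which 7 were tested, and 5 of these had a log2 fold change above 0. None had an unadjusted p under 0.05. MARCO, a scavenger receptor for bacteria and particles (chromosome 10 of ChlSab1.1, 11329026 to 11388999), had 57.7, 8.07, 38.7, 20 and 40.8 CPM in HFr 1 to 5 and 17.8, 9.86, 19.1, 48.0 and 33.1 CPM in chow 1 to 5. VSIG4, the complement receptor CRIg (chromosome X, 55962866 to 55981287), had 14.3, 4.49, 8.88, 6.89 and 12.5 CPM on the HFr diet and 4.34, 3.50, 5.32, 17.2 and 10.1 CPM on chow. In both genes the livers of HFr 1 and chow 4 were the 2 highest and those of HFr 2 and chow 2 were among the 3 lowest, so the diets overlapped over nearly their whole range. CD163, the receptor for haptoglobin-hemoglobin complexes, followed the same order at its low end, with 0.876 CPM in chow 2 and 2.02 CPM in HFr 2 and a highest value of 7.16 CPM in HFr 1. CD5L, a protein that macrophages secrete, averaged 33.0 ± 16.7 CPM (SD, n = 5) on the HFr diet and 34.2 ± 15.2 CPM (SD, n = 5) on chow.

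CD14, the co-receptor for bacterial lipopolysaccharide, which hepatocytes also make, stood apart from the other macrophage markers by its even level. It had 317, 281, 255, 287 and 246 CPM in HFr 1 to 5 and 242, 278, 291, 306 and 267 CPM in chow 1 to 5. The highest liver was 1.31-fold above the lowest, against 7.14-fold for MARCO, 8.17-fold for CD163 and a median of 2.40-fold over all tested transcripts. Its log2 fold change was 0.0024 (SE 0.16, edgeR unadjusted p = 0.989, adjusted p = 0.9996).

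MS4A7, a membrane protein of macrophages, had the smallest p of the macrophage markers. It had 6.03, 3.59, 3.63, 5.78 and 2.97 CPM on the HFr diet and 4.34, 3.94, 2.02, 11.6 and 21.1 CPM on chow. The chow mean rested on chow 4 and chow 5, and 3 of the 5 chow livers lay within the HFr range or below it. The log2 fold change was -0.85 (SE 0.54, edgeR unadjusted p = 0.135, adjusted p = 0.9996). It was -0.20 without chow 5 and 0.36 without chow 4 and chow 5, and without chow 3, the lowest liver, it was -1.15 with an unadjusted p of 0.0314 from edgeR. CSF1R, the receptor through which macrophages receive their main survival signal, had 2.02 to 5.34 CPM on the HFr diet and 2.63 to 3.12 CPM in 4 chow livers. In chow 5 it was 0.46 CPM, which is 1 count. CD68, a lysosomal glycoprotein of macrophages, had 0.396 to 2.02 CPM on the HFr diet and 0.46 to 2.06 CPM on chow and was below the filter. TIMD4, the phosphatidylserine receptor of long-lived Kupffer cells, had 3 counts in chow 3 and none in the other livers.

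The complement C1q chains followed the scavenger receptors. C1QB, the B chain (chromosome 20, 110002864 to 110011316), had 58.4, 15.3, 46.0, 24.7 and 47.5 CPM in HFr 1 to 5 and 21.5, 14.0, 26.0, 69.7 and 42.3 CPM in chow 1 to 5. C1QC, the neighboring C chain (110016362 to 110020854), had 6.50 to 25.6 CPM on the HFr diet and 8.98 to 27.1 CPM on chow. Each diet held livers with high and with low C1q, and the 2 lowest for both genes were again HFr 2 and chow 2. C1QB had a log2 fold change of 0.17 (SE 0.42, edgeR unadjusted p = 0.692, adjusted p = 0.9996). Leaving out 1 animal at a time moved it from -0.040 without HFr 1 to 0.57 without chow 4.

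**Figure D2:**
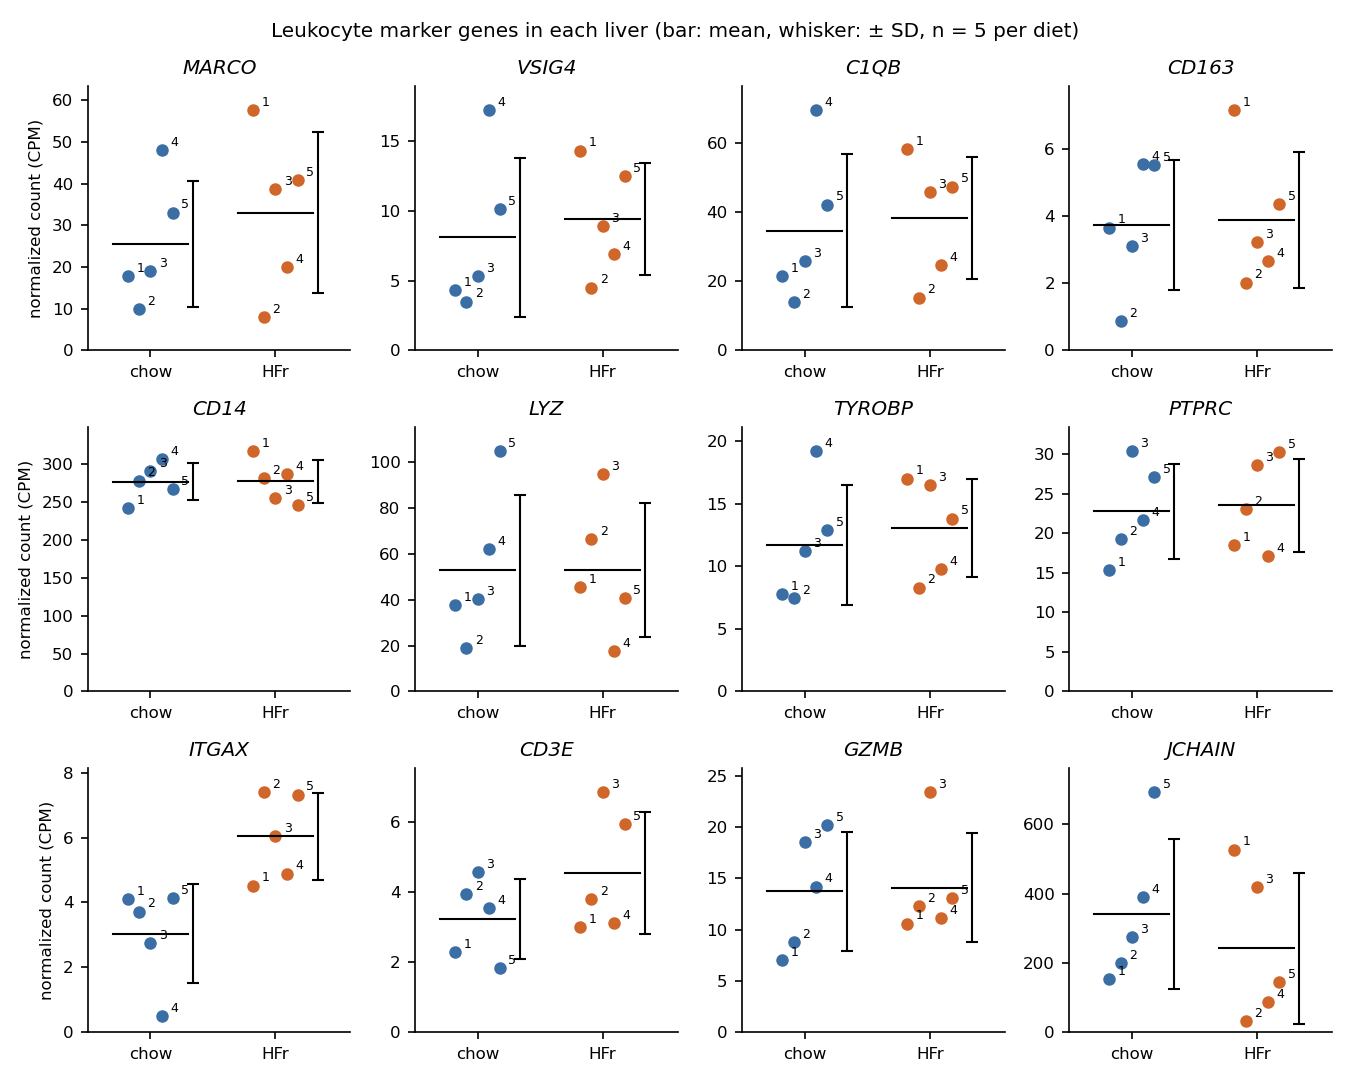
Normalized counts (CPM, linear axes from 0) of 12 leukocyte markers in each liver; points are animals numbered by replicate, bars are means and whiskers ± SD with 5 animals on each diet. The diets overlap in every panel except ITGAX, where the 5 HFr livers lie between 4.52 and 7.40 CPM and the 5 chow livers at or below 4.14 CPM, and CD14 varies least between livers.

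Of 12 markers shared by macrophages, other myeloid cells and leukocytes in general, 11 matched and 9 were tested, 6 of them with a log2 fold change above 0. PTPRC, the pan-leukocyte phosphatase CD45, had 18.5, 23.1, 28.6, 17.1 and 30.3 CPM in HFr 1 to 5 and 15.3, 19.3, 30.4, 21.7 and 27.1 CPM in chow 1 to 5. The means, 23.5 ± 5.89 and 22.8 ± 6.06 CPM (SD, n = 5), differed by less than the spread between animals, and the highest liver was 1.99-fold above the lowest. LYZ, lysozyme, varied more. It had 45.6, 66.4, 94.8, 17.6 and 40.6 CPM on the HFr diet and 37.7, 19.1, 40.2, 62.2 and 105 CPM on chow. The log2 fold change of LYZ was 0.02 (SE 0.44, edgeR unadjusted p = 0.971, adjusted p = 0.9996), and it lay between -0.31 without HFr 3 and 0.42 without chow 5.

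The signaling adaptors and effectors of myeloid cells overlapped between the diets in the same way. TYROBP, the adaptor DAP12, averaged 13.1 ± 3.92 CPM (SD, n = 5) on the HFr diet and 11.7 ± 4.78 CPM (SD, n = 5) on chow. FCER1G, the Fc receptor gamma chain, had 13.8 to 35.9 CPM on the HFr diet and 10.7 to 53.6 CPM on chow. CYBB, the catalytic subunit of the phagocyte NADPH oxidase, had 4.89 to 19.0 and 4.16 to 18.4 CPM. For LAPTM5, a lysosomal membrane protein of leukocytes, 4 HFr livers had 19.8 to 24.1 CPM and HFr 3 had 40.3 CPM, while the chow livers had 13.8 to 25.8 CPM. CD74, the invariant chain of MHC class II, was lowest in HFr 1 at 6.78 CPM and highest in chow 1 at 21.0 CPM. Cathepsin S (CTSS) and the costimulatory ligand CD86 were below the filter, at 1.51 to 3.59 and 0.438 to 4.44 CPM over the 10 livers.

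Among the 25 tested markers, ITGAX had the largest log2 fold change and the smallest p. It encodes the integrin alpha X chain CD11c, which is used to mark dendritic cells and is also carried by some macrophages and monocytes (chromosome 5, 28058456 to 28086838). It had 4.52, 7.40, 6.05, 4.89 and 7.32 CPM in HFr 1 to 5 and 4.11, 3.72, 2.75, 0.505 and 4.14 CPM in chow 1 to 5. Every HFr liver was above every chow liver. Among all tested transcripts, 0.541% did not overlap between the diets, 0.214% in this direction. The counts behind these levels were small, 12 to 37 per liver on the HFr diet and 1 to 18 on chow, with the single count in chow 4, the liver with the fewest nuclear counts. ITGAX had a log2 fold change of 0.94 (SE 0.35, edgeR unadjusted p = 0.0166), a 1.92-fold difference, and did not pass adjustment over all transcripts (adjusted p = 0.9996, range 0.8379 to 1 over the alternatives). It was 0.74 without chow 4 and between 0.74 and 1.07 with any 1 animal left out. Its unadjusted p was under 0.05 in 24 of 25 alternatives. The exception was scaling by library size alone, where edgeR gave a log2 fold change of 0.92 and an unadjusted p of 0.0781. ITGAM, the related integrin alpha M chain CD11b in the adjoining position on the chromosome (27957324 to 28042691), had 3.59 to 9.69 CPM on the HFr diet and 3.20 to 10.6 CPM on chow. The counts of both genes were whole numbers in every liver, and whether reads that fit both of these similar genes were shared between them was not tested.

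The calgranulins S100A8 and S100A9, which neutrophils and monocytes carry in large amounts, were close to the counting floor in most livers and high in 1. S100A8 (chromosome 20, 10363287 to 10364317) had 5.28, 0.897, 7.67, 0.444 and 5.94 CPM in HFr 1 to 5 and 0, 1.1, 21.5, 1.01 and 1.84 CPM in chow 1 to 5. S100A9 (10391934 to 10394720) had 5.28, 1.12, 7.67, 1.11 and 3.76 CPM on the HFr diet and 1.83, 1.75, 16.9, 1.52 and 2.30 CPM on chow. Chow 3 was the highest liver for both, with 117 and 92 counts, and HFr 1, HFr 3 and HFr 5 followed. Both genes stayed below the filter. With every transcript that had any count tested, the log2 fold changes were -0.55 (SE 0.79) for S100A8 and -0.58 (SE 0.61) for S100A9, with adjusted p-values of 0.9473 and 0.899 from edgeR. A further 13 neutrophil genes, summed, also had their highest level in chow 3, 32.3 CPM against 9.55 to 20.6 CPM in the other livers. Most of that sum in chow 3 came from 1 gene, CSF3R, the receptor for granulocyte colony stimulating factor and the only one tested. CSF3R had 19.3 CPM in chow 3 and 2.47 to 10.3 CPM elsewhere, so the sum and CSF3R are not separate observations.

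The 3 tested T cell markers overlapped between the diets and rested on 4 to 49 counts per liver. CD3E, the epsilon chain of the T cell receptor complex (chromosome 1, 109681065 to 109692839), had 3.01, 3.81, 6.86, 3.11 and 5.94 CPM in HFr 1 to 5 and 2.29, 3.94, 4.58, 3.54 and 1.84 CPM in chow 1 to 5. The 2 highest livers were on the HFr diet and the 2 lowest on chow, with the rest mixed. The log2 fold change was 0.43 (SE 0.34, edgeR unadjusted p = 0.219, adjusted p = 0.9996). CD3D, the delta chain of the same complex, averaged 2.63 ± 0.71 CPM (SD, n = 5) on the HFr diet and 2.59 ± 0.544 CPM (SD, n = 5) on chow. CD2, an adhesion receptor of T and natural killer cells, had 6.41, 7.18, 11.7, 6.66 and 9.69 CPM on the HFr diet and 7.77, 9.20, 6.24, 5.56 and 13.3 CPM on chow, and its log2 fold change was -0.0087 (SE 0.27, edgeR unadjusted p = 0.975, adjusted p = 0.9996). CD8A, the CD8 alpha chain, had 1 count in all 10 livers together. The summed level of the 4 T cell genes was 15.5 ± 4.56 CPM (SD, n = 5) on the HFr diet and 14.3 ± 1.94 CPM (SD, n = 5) on chow.

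The tested genes of cytotoxic lymphocytes overlapped between the diets. GZMB, granzyme B (chromosome 24, 1574453 to 1577798), had 10.6, 12.3, 23.4, 11.1 and 13.1 CPM in HFr 1 to 5 and 7.08, 8.76, 18.5, 14.2 and 20.2 CPM in chow 1 to 5. Only HFr 3 stood above the chow range, and the log2 fold change was 0.04 (SE 0.31, edgeR unadjusted p = 0.9, adjusted p = 0.9996). PRF1, perforin, which forms the pores through which granzymes enter target cells, averaged 4.09 ± 1.52 and 4.22 ± 1.84 CPM (SD, n = 5). CCL5, a chemokine of activated T and natural killer cells, had 8.67, 5.61, 4.84, 4.67 and 6.73 CPM on the HFr diet and 2.97, 4.16, 7.70, 6.06 and 5.97 CPM on chow. Its log2 fold change was 0.19 (SE 0.30, edgeR unadjusted p = 0.544, adjusted p = 0.9996).

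Granzyme A (GZMA) and NKG7, a granule membrane protein, were too low for the filter. GZMA had 1.88, 1.35, 1.21, 1.33 and 1.19 CPM on the HFr diet and 0.914, 0.876, 0.183, 1.01 and 0.46 CPM on chow. These levels did not overlap, but they rest on 3 to 6 counts per HFr liver and 1 to 4 per chow liver, near the floor. With every transcript that had any count tested, GZMA had a log2 fold change of 1.02 (SE 0.57, edgeR unadjusted p = 0.0894, adjusted p = 0.8379). For NKG7, with 1.78 to 3.17 CPM on the HFr diet and 0.367 to 2.85 CPM on chow, it was 0.88 (SE 0.53, edgeR unadjusted p = 0.112, adjusted p = 0.8379).

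Of 3 B cell markers, 2 were nearly absent, and the plasma cell marker had the widest range of the 25 tested genes. MS4A1, which encodes CD20, had 3 counts in all, in HFr 4 and HFr 5, and CD79A, the alpha chain of the B cell receptor signaling unit, had 3 counts in HFr 1 and 1 in chow 1. CD79B, the beta chain, had 1.79 to 4.84 CPM on the HFr diet and 1.28 to 3.07 CPM on chow and was not tested. JCHAIN, the joining chain of polymeric IgA and IgM that plasma cells secrete (chromosome 7, 19163765 to 19175389), had 527, 33.6, 418, 86.9 and 145 CPM in HFr 1 to 5 and 154, 199, 274, 389 and 693 CPM in chow 1 to 5. The highest liver was 20.6-fold above the lowest, and the 3 lowest livers were on the HFr diet while HFr 1 and HFr 3 were among the 3 highest. JCHAIN had a log2 fold change of -0.50 (SE 0.61, edgeR unadjusted p = 0.423, adjusted p = 0.9996). It was -1.01 without HFr 1, -0.08 without chow 5 and 0.21 without chow 4 and chow 5. IGKC, the kappa light chain constant region, also differed widely between livers, with 881 CPM in HFr 1 as the highest and 83.2 CPM in HFr 2, the lowest liver for JCHAIN too, as the lowest.

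Summed over all matched genes, the myeloid markers had 613.5 ± 104 CPM (SD, n = 5) on the HFr diet and 598.9 ± 141 CPM (SD, n = 5) on chow. CD14 made up much of this sum, and without it the levels were 336.4 ± 110 and 322.1 ± 128 CPM. The lymphocyte markers summed to 289.1 ± 221 CPM on the HFr diet and 383.9 ± 222 CPM on chow, and JCHAIN set the order, since without it the sums were 47.1 ± 8.90 and 42.0 ± 8.61 CPM. None of these sums differed between the diets by more than the spread between animals.

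Many of the markers varied widely between animals on the same diet. The median ratio of the highest to the lowest liver was 4.17 over the 25 tested markers, 4.94 over the myeloid and 3.19 over the lymphocyte genes, beside 2.40 over all tested transcripts. This ratio takes both diets together and was not matched for level. Low counts can raise it, as for ITGAX (14.6) and CSF1R (11.6), where the lowest liver had 1 count. By role, it was 7.14 for the Kupffer cell and macrophage genes, 4.58 for C1q, 3.32 for the shared leukocyte genes, 3.19 for the cytotoxic genes and 2.40 for the T cell genes. Of the 18 tested myeloid genes, 14 were above their mean of the 10 livers in HFr 1 and 15 in each of HFr 3, HFr 5, chow 4 and chow 5. In the remaining livers it was 5 in HFr 2, 5 in HFr 4, 4 in chow 1, 2 in chow 2 and 6 in chow 3. The myeloid markers thus stood high in 3 HFr and 2 chow livers and low in 2 HFr and 3 chow livers. Apart from HFr 5, the high livers had the smallest scaled library sizes, by which counts are divided, from 1978778 in chow 4 to 2653832 in HFr 1. The part of library size and scaling in this split was not tested. Of the 7 tested lymphocyte genes, between 1 and 6 were above their mean in any liver, with the most in chow 3.

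**Figure D3:**
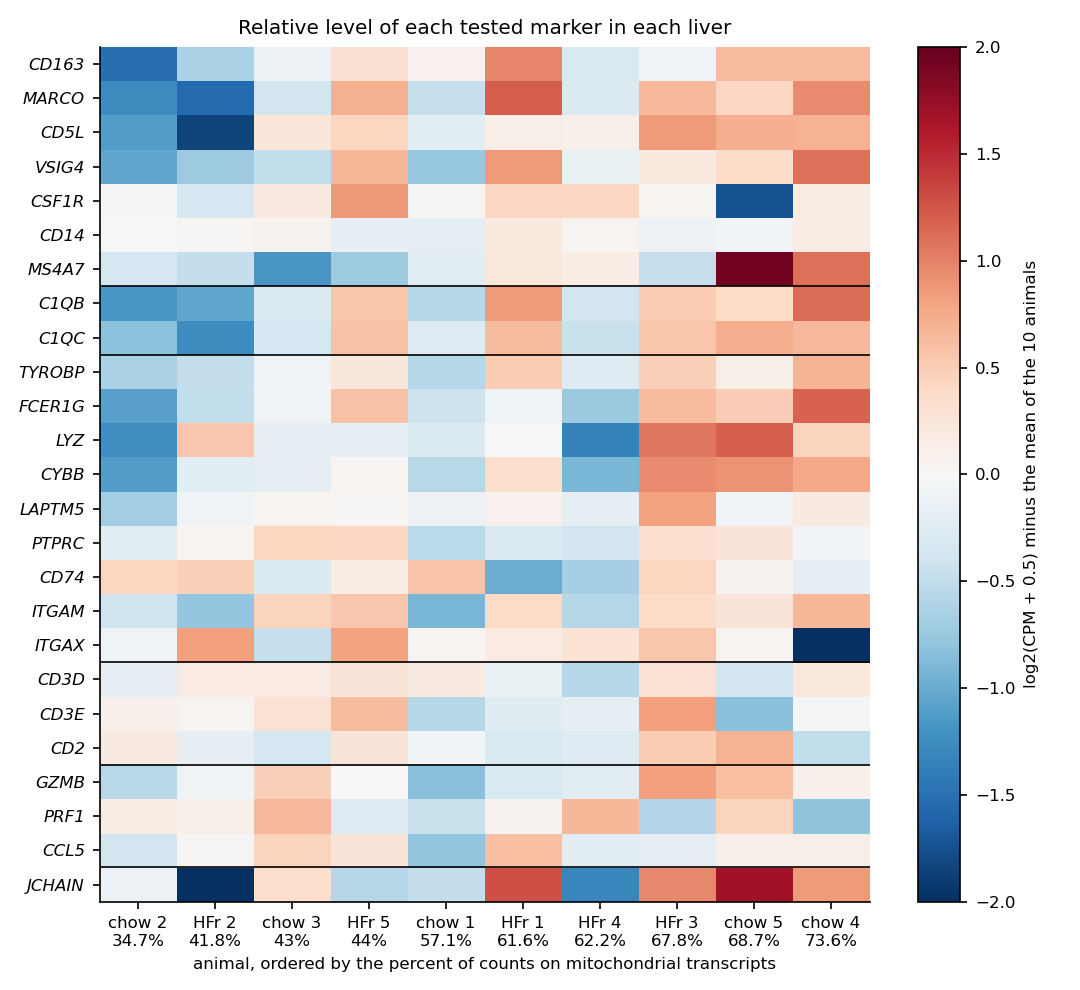
Level of the 25 tested markers in each of the 10 livers, as log2(CPM + 0.5) minus the gene's mean over the livers, with colors limited to between -2 and 2 and horizontal lines between roles. The livers are ordered by the percent of counts on mitochondrial transcripts, from 34.7% in chow 2 to 73.6% in chow 4, and most of the myeloid genes run from low at the left to high at the right while the T cell and cytotoxic genes do not.

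The percent of counts on mitochondrial transcripts moved with most of the myeloid markers across the 10 livers, more closely on chow than on the HFr diet. Pearson's r was positive for 14 of the 18 myeloid genes, with a median of 0.64 and a range of -0.40 to 0.72, and for 4 of the 7 lymphocyte genes, with a median of 0.03. For C1QB, r was 0.72 (permutation p = 0.0262, adjusted p = 0.120) and Spearman's rho 0.68 (permutation p = 0.0340, adjusted p = 0.109), with adjustment over the 25 genes. For MARCO, r was 0.70 (permutation p = 0.0291, adjusted p = 0.120) and rho 0.67 (permutation p = 0.0392, adjusted p = 0.109). No gene had an adjusted p under 0.05 by either measure. Within the diets, r was higher on chow than on the HFr diet for most myeloid genes with a positive r. It was 0.9 on chow and 0.46 on the HFr diet for C1QB, and 0.93 and 0.51 for MARCO. For FCER1G it was 0.89 and 0.08, and for LYZ 0.86 and -0.04. CD14 went the other way, with 0.07 on chow and 0.27 on the HFr diet. Each of these values rests on 5 livers, and the difference in r between the diets was not tested. Without chow 2 and HFr 2, the 2 livers farthest from the median percent, r was 0.44 for C1QB and 0.39 for MARCO, so the size of these relations rested on those livers, whereas for MS4A7 it went from 0.70 to 0.77. The CD45 gene PTPRC had an r of -0.11 and ITGAX one of -0.40 (adjusted permutation p = 0.833 and 0.475). The factor that scales the library size mostly fell as the mitochondrial percent rose, from 1.488 in chow 2 to 0.607 in chow 4. The levels thus share the library and its scaling with this percent, and the part of scaling in these relations was not tested.

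With the mitochondrial percent as a covariate, the log2 fold change of C1QB was 0.30 (SE 0.32, edgeR unadjusted p = 0.361). That of MARCO was 0.50 (SE 0.37, edgeR unadjusted p = 0.199) and that of ITGAX 0.97 (SE 0.33, edgeR unadjusted p = 0.0119). A fit without chow 4 and chow 5, added after the values were seen, gave 3 markers an unadjusted p under 0.05 by edgeR. All were higher on the HFr diet: ITGAX at 0.79, C1QB at 0.89 and VSIG4 at 1.07. Of the 8867 transcripts tested in that fit, 4.44% met this threshold, 210 higher and 184 lower. The median log2 fold change of the tested myeloid markers was then 0.54. Chow 4 and chow 5 were the 2 highest chow livers for C1QB (69.7 and 42.3 CPM) and VSIG4 (17.2 and 10.1 CPM). Leaving them out therefore had to raise both differences, and most myeloid markers also stood high in these 2 livers. No diet difference is read from that fit. ITGAX lay between 0.74 and 1.21 in every alternative that tested it.

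Genes of the same complex or cell type shared their variation across the livers to different degrees. For 8 pairs of markers, chosen after the values were seen, Pearson's r and Spearman's rho on the log2 scale over the 10 livers are given as a description, without a test. MARCO and C1QB had r = 0.98 and rho = 0.96, and r = 0.97 without HFr 2 and chow 2, the livers farthest from the median of MARCO. MARCO and VSIG4 had r = 0.93 and rho = 0.94, and the C1q chains C1QB and C1QC had r = 0.94 and rho = 0.83, with r = 0.94 and 0.91 without the same 2 livers. The signaling chains TYROBP and FCER1G had r = 0.86 and rho = 0.83, and r = 0.73 without chow 4 and chow 2. S100A8 and S100A9 had r = 0.92 and rho = 0.87, and r = 0.81 without chow 3 and HFr 3. For the T cell chains CD3D and CD3E, r was 0.58 and rho 0.60, and r was 0.42 without HFr 4 and chow 5. The values were lowest for MARCO and PTPRC, with r = 0.23 and rho = 0.12, and for CD74 and ITGAX, with r = 0.24 and rho = 0.20. Without 2 livers these became r = 0.22 (HFr 2 and chow 2) and r = 0.64 (HFr 1 and HFr 4). All of these values share the library, its depth and its scaling.

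**Figure D4:**
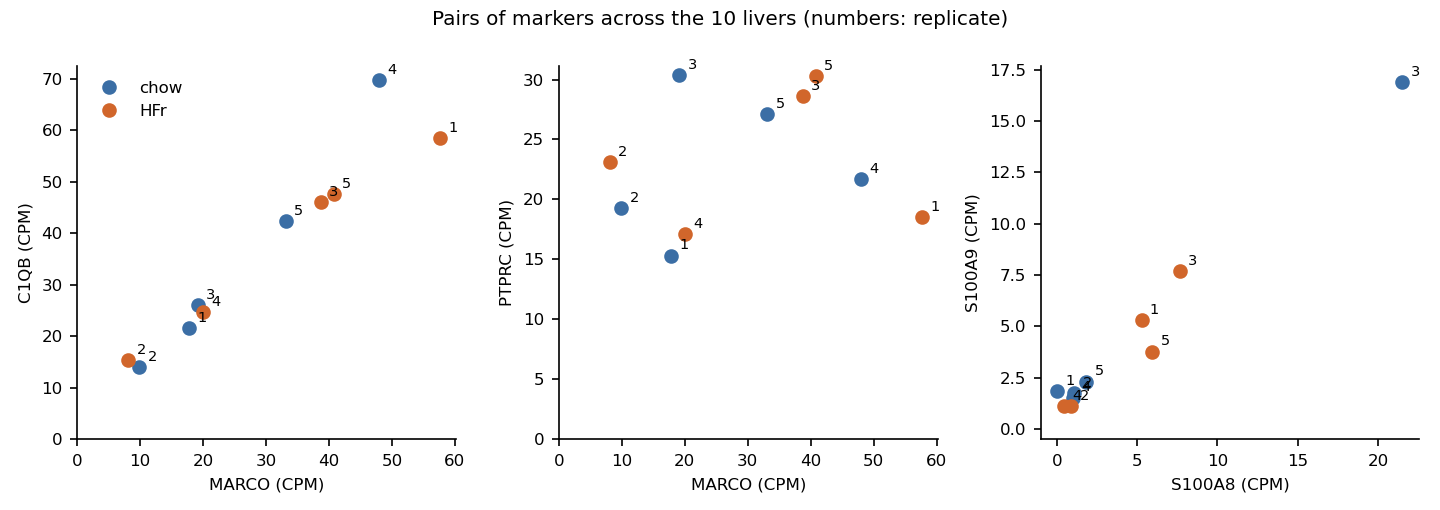
Normalized counts (CPM) of 3 pairs of markers in the 10 livers, with chow in blue, HFr in orange and points numbered by replicate. MARCO and C1QB lie close to a line on both diets (r = 0.98 on the log2 scale), MARCO and PTPRC scatter (r = 0.23), and chow 3 lies alone at the top right for S100A8 and S100A9 at 21.5 and 16.9 CPM.

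Wider gene lists of the same lineages were read against the same background, 4.29% of all tested transcripts with an unadjusted p under 0.05. Of 60 further macrophage and myeloid genes, 32 were tested, 20 with a log2 fold change above 0, and none had an unadjusted p under 0.05 in edgeR. Of 41 further T and natural killer cell genes, 9 were tested, with 3 below 0.05 before adjustment, 2 higher and 1 lower on the HFr diet. This share is larger than the 4.29% of all tested transcripts, but this list and the others here were chosen with earlier results of these data known. FOXP3, the transcription factor of regulatory T cells, averaged 58.3 ± 24.8 CPM (SD, n = 5) on the HFr diet and 33.0 ± 11.5 CPM (SD, n = 5) on chow, and the interleukin 2 receptor chain IL2RB was higher on the HFr diet too. The T cell receptor chain CD3E averaged 4.55 CPM on the HFr diet and 3.24 CPM on chow. Transcript length is not part of the unit, so this level is not compared with that of FOXP3. Whether the FOXP3 counts came from regulatory T cells was not tested. Of 28 further B and plasma cell genes, 7 were tested and 1 was under the threshold, PRDM1, a plasma cell regulator, at 2.63 ± 1.38 CPM on the HFr diet and 5.03 ± 1.89 CPM on chow (SD, n = 5). Of 13 MHC class II genes, 5 were tested and none was under it, nor was the 1 tested of 14 neutrophil genes.

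Of 31 chemokines, cytokines and adhesion molecules of leukocyte recruitment, 11 were tested and 3 were below 0.05 before adjustment, against 4.29% of all tested transcripts. This list, too, was chosen with earlier results of these data known, so no excess is read from it. CXCL9, an interferon-induced chemokine for T cells, averaged 9.56 ± 6.49 CPM (SD, n = 5) on the HFr diet and 3.80 ± 2.24 CPM (SD, n = 5) on chow. CCL2, the main chemokine for monocytes, and CCL19, a chemokine of lymphoid tissue, were lower on the HFr diet, CCL2 at 5.19 ± 1.13 against 8.83 ± 4.24 CPM (SD, n = 5). The diets overlapped for every gene named from these lists, and no adjusted p was under 0.9996.

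The tissue was liver by its markers, with 18 of 18 hepatocyte genes tested and a summed level of 53000 to 108000 CPM, while 7 skeletal muscle genes summed to 0.377 to 2.74 CPM. None of the hepatocyte genes and none of the 3 tested of 9 cholangiocyte genes had an unadjusted p under 0.05 from edgeR. The same held for the 1 tested of 14 red blood cell and platelet genes, HBB. Of 13 tested endothelial genes, 1 was under the threshold and higher on the HFr diet, KDR, the receptor of vascular endothelial growth factor, against 2.06% of all tested transcripts in that direction. Of 12 tested stellate cell and fibroblast genes, 2 were under it and lower, ACTA2 and TAGLN, both markers of contractile cells, against 2.23% of all tested transcripts in that direction. These lists were also chosen with earlier results of these data known. The part of these cell types in the differences of the leukocyte markers was not tested.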

How the data were processed

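RNA was measured in the livers of 10 animals, 5 on each diet, with 1 library from each, so replicates are separate animals and were not pooled. The authors demultiplexed with CASAVA 1.8, kept reads of Phred 30 or more, and estimated reads of 100 bases per Ensembl release 93 transcript of ChlSab1.1 by expectation-maximization in Partek. The processing notes also name STAR 2.5.3a and FastQC. How strand was used in counting is not given in the sources used here. The authors deposited estimated counts without normalization, of which 97.69% were whole. This share includes values of 0, since 16124 of the 28078 transcripts had a count in any animal. The authors also deposited a normalized signal, made by scaling each animal with the trimmed mean of M values (TMM). Its ratio to the estimated count was constant in each animal to within 0.00147%. Coordinates count from 1, with the listed stop excluded.

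Estimated counts were rounded, filtered with filterByExpr (minimum count 10, minimum total 15), scaled by TMM and tested for a diet effect by edgeR's quasi-likelihood method. Diet was the only term, and Benjamini-Hochberg adjustment covered all 7948 transcripts. The threshold was 0.05. TMM factors were 0.607 to 1.49, and the biological coefficient of variation was 29.0%. Software was edgeR 4.0.16, DESeq2 1.42.0 and limma 3.58.1 under R 4.3.3. Correlations used log2(CPM + 0.5), and those with the mitochondrial percent 100000 two-sided permutations.

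The members, lists and roles were chosen with earlier results of these data known. Fold changes are given for the member of each role with the smallest p or the highest mean, for an unadjusted p under 0.05, and for diets that did not overlap. At most the 3 genes with the smallest p are named from any other list. From the T and natural killer cell list, 1 gene enters the counts but is not reported here. Fold changes of further members, chosen after their values were seen, are given for fits without animals or with the mitochondrial percent, and for members below the filter.

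Counts were simulated for 7905 transcripts in this comparison, with the same dispersion for every transcript. The markers had a median SE of 0.37 against 0.25 for all tested transcripts, so the shares detected in the simulation need not hold for them. Of 97 simulated transcripts with a log2 change of 1, 88.7% had an unadjusted p under 0.05 in edgeR and 53.6% passed adjustment. All 95 with a change of 2 passed, and of 7713 without a change 4.86% fell below 0.05 before adjustment. Alternatives were limma with a pseudocount of 1 or 0.1, DESeq2, the study's equal-variance test, other scalings and filters, counts summed by gene, no mitochondrial transcripts, the mitochondrial percent as a covariate, a replicate block, robust estimation, counts not rounded, and each animal left out. Fits without chow 4 and chow 5 and sums without CD14 or JCHAIN were added after the values were seen. Floors cover counting error only, while standard errors and SDs also hold the variation between animals.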

Additional observations from a re-analysis of the deposited data

Results flagged for a closer look

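In 10 of 74 groups of 5 livers, 1 liver stood apart from the other 4 by more than Dixon's 95% critical value of 0.71. The measure is the gap to the nearest liver over the whole range. For independent, normally distributed values chance gives about 1 in 20 groups. The levels were not log-transformed, and genes such as S100A8 and S100A9 varied together, so 10 of 74 is not read as an excess. In 4 of the 10, TIMD4, CD8A and CD79A on both diets, the other livers were at 0, so that any count stands apart. Among chow livers, chow 3 had 21.5 CPM of S100A8 against 0 to 1.84 in the others, 16.9 CPM of S100A9 against 1.52 to 2.30, and 0.55 CPM of TIMD4 (3 counts) against 0. CSF1R was 0.46 CPM (1 count) in chow 5 against 2.63 to 3.12, and CD79A was 0.229 CPM (1 count) in chow 1 against 0. Among HFr livers, HFr 3 had 40.3 CPM of LAPTM5 against 19.8 to 24.1 and 23.4 CPM of GZMB against 10.6 to 13.1. HFr 1 had 1.88 CPM of GZMA (5 counts) against 1.19 to 1.35 and 1.13 CPM of CD79A (3 counts) against 0, and HFr 4 had 0.222 CPM of CD8A (1 count) against 0. For S100A8, S100A9, LAPTM5 and GZMB the values rest on 117, 92, 100 and 58 counts.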

How the results depend on the processing

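Of all tested transcripts, 341 had an unadjusted p under 0.05 and none an adjusted one. DESeq2 gave 2 adjusted calls and library size alone 1. Library size alone gave 123 unadjusted calls and a filter on a count in any animal 756. The range was 260 to 408 with 1 animal left out. The split was 164 higher and 177 lower with edgeR, 229 and 111 with limma at a pseudocount of 1, 222 and 110 at 0.1, and 214 and 114 with the equal-variance test. Among the markers, the count of 1 became 0 with library size alone and with a filter of 10 counts in every animal, which ITGAX does not pass. It was 1 to 2 with 1 animal left out. Without chow 4 and chow 5 it was 3, where 4.44% of the 8867 tested transcripts met the threshold and the myeloid median was 0.54. The numbers do not pair the animals (correlations of same-numbered animals from -0.282 to 0.095, 0 of 5 best with their own number), and with a replicate block there were 271 unadjusted calls, 1 marker among them, ITGAX at 1.005, and CD2 turned to 0.0013. CD2 also turned to 0.039 and 0.050 with limma, to 0.025 with the equal-variance test, to 0.0021 with 10 counts in every animal and to 0.10 without chow 4 and chow 5. That last fit turned MS4A7 to 0.36 and JCHAIN to 0.21. With 1 animal left out, CD14 ranged from -0.058 to 0.0425, C1QB from -0.040 to 0.57, LYZ from -0.31 to 0.42, GZMB from -0.21 to 0.20 and CD2 from -0.15 to 0.18. The median of all tested markers ranged from -0.05 to 0.22, of the myeloid from -0.05 to 0.27 and of the lymphocyte from -0.07 to 0.18. The cause of these moves was not tested, except that fewer transcripts or animals enter some fits. Low counts kept CD68, TIMD4, CTSS, CD86, S100A8, S100A9, CD8A, NKG7, GZMA, MS4A1, CD79A and CD79B below the filter, and they were tested only when any count sufficed.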
